A study of Mus musculus with 4 samples.

Results

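Impact is a single gene of the 8797 listed in liver mRNA of F1 hybrid mice, and it was found by its symbol in the deposited tables. It was singled out because its B6-allele frequency, the share of allele-assigned reads that carry the C57BL/6J (B6) sequence, lay near opposite ends of the scale in the 2 reciprocal crosses. The frequencies below are therefore a description of the values that chose the gene and are given without a test of their difference between the crosses. A frequency was given in all 4 mice for 3632 of the 8797 genes, Impact included, and for the other 5165 genes in none.

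Impact encodes a cytosolic protein with an RWD domain, the mammalian counterpart of yeast Yih1. It binds GCN1 and thereby limits the activation of GCN2, the kinase that phosphorylates the translation factor eIF2α when amino acids run short, after which the transcription factor ATF4 and its target genes are induced. Impact is also a known imprinted gene of the mouse: the copy inherited from the father is transcribed, while a CpG island in the first intron of the copy inherited from the mother is methylated. It is best known from brain, where its protein is abundant in neurons.

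The mice were females of 5 months from crosses of B6 with MSM/Ms (MSM), an inbred strain of a different subspecies origin. Both crosses give the same autosomal genotype, 1 B6 and 1 MSM copy, and differ in which parent each copy came from. Each cross, MSM mother x B6 father or B6 mother x MSM father, had 2 mice, named below as its replicates 1 and 2. In mice with an MSM mother the B6 copy of Impact is paternal, and in mice with a B6 mother the B6 copy is maternal. The same 4 livers underlie every comparison, and no mouse carried an engineered allele or was treated. The design text describes the mice of a cross as biological replicates.

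Expression was given in FPKM, fragments per kilobase of transcript scaled to the mapped fragments of the library, and the FPKM of the listed genes summed to between 529024 and 671875 per mouse. Reads per allele are not in the values used here, so the depth behind each frequency is unknown and single frequencies carry no interval. Of the markers looked at for the labelled tissue, 5 of 6 hepatocyte genes, all but Alb, were listed, with summed FPKM of 9682 to 14183 per mouse. Of the markers of other liver cells, 3 of 5 Kupffer cell, 5 of 5 endothelial and 2 of 5 stellate cell genes were found by symbol, and none of 4 cholangiocyte or 4 lymphocyte genes. The Kupffer cell marker Adgre1 is listed under its older symbol, Emr1, and was not counted. Of 4 neuronal markers, Syt1 was listed, at 5.95 to 6.84 FPKM, and Rbfox3, Snap25 and Tubb3 were not.

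Impact lies on the plus strand of chromosome 18, at chr18:12955852-12992950 of mm10. GENCODE annotates 9 transcripts there, 5 of them protein coding. The transcript with the longest coding sequence, Impact-201, runs from 12971923 to 12992950 and has 11 exons with 3763 bases, of which 954 bases, or 318 codons, are coding sequence. The deposited frequency is a single value per gene, so the transcripts and exons cannot be told apart in it.

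Nearly all allele-assigned Impact reads came from the paternal copy in every mouse, whichever strain the father was. The B6-allele frequency was 0.979 in replicate 1 and 0.944 in replicate 2 with an MSM mother. With a B6 mother it was 0.0446 in replicate 1 and 0.0899 in replicate 2. The mean frequency was 0.961 ± 0.0248 (SD, n = 2) with an MSM mother and 0.0672 ± 0.0321 (SD, n = 2) with a B6 mother, a difference of 0.894. The frequencies of the crosses do not overlap, and the mice of each cross lay close together at their end of the scale. The mean of the crosses was 0.514, and since the gene was chosen for values near opposite ends of the scale, a mean near 0.5 follows from the choice.

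The residual reads assigned to the maternal copy made up 2.11% and 5.61% of the allele-assigned reads with an MSM mother. They made up 4.46% and 8.99% with a B6 mother. A maternal share above 0 was thus seen in all 4 mice, and the ranges of the crosses overlap. The mean maternal share was 3.86% ± 2.48 (SD, n = 2) where the silent copy was MSM and 6.72% ± 3.21 (SD, n = 2) where it was B6. The difference of 2.86 percentage points is a description of the same frequencies and is given without a test. It depended on single mice, at 1.11 and 4.62 points without replicate 1 or replicate 2 with an MSM mother, and 5.13 and 0.597 points without replicate 1 or replicate 2 with a B6 mother. Over the 4 mice the maternal share averaged 5.29% ± 2.86 (SD, n = 4), and the paternal share ranged from 91.0% to 97.9%. Written as a ratio, paternal reads outnumbered maternal reads 46.5 and 16.8 to 1 with an MSM mother and 21.4 and 10.1 to 1 with a B6 mother.

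Shares of the less used allele below those of Impact occurred in the same libraries. In every mouse, 27 of the 3632 genes (0.743%) had a smaller share of their less used allele than Impact had. Igf2r, the receptor that clears insulin-like growth factor 2 and a maternally expressed imprinted gene, had paternal shares of 0.554% and 0.134% with an MSM mother, against 0.751% and 0.251% with a B6 mother. Meg3, a maternally expressed non-coding RNA, had paternal shares of 0% and 0.929% with an MSM mother, against 1.11% and 0% with a B6 mother. In the last of these mice, replicate 2 with a B6 mother, Meg3 had only 1.12 FPKM. The lowest share of the silent copy of Impact, 2.11%, was thus above the highest of Meg3 and of Igf2r. This comparison was not tested, since all 3 genes stand out by the same frequencies.

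Total Impact expression was low and very even among the mice. Impact had 4.02 and 3.99 FPKM with an MSM mother, against 4.02 and 4.39 FPKM with a B6 mother, which is 0.345 to 0.386 times the median gene of the same mouse. Its mean of 4.11 ± 0.191 FPKM (SD, n = 4) placed it at rank 7450 from the top among the 8797 genes, with 15.3% of genes lower. The coefficient of variation over the 4 mice was 4.66%, against a median of 12.2% among the 3415 genes whose mean FPKM was 0.5 to 2 times that of Impact, and 6.73% of those genes varied less. Both values with a B6 mother lay above both of the other cross. Replicate 2 was the highest, while replicate 1 was only just above (4.025 against 4.021 FPKM in replicate 1 with an MSM mother). The difference between the crosses was -0.06 in log2(FPKM + 1), MSM mother minus B6 mother (SE 0.12, 95% interval -0.34 to 0.23, limma adjusted p = 0.879). At an adjusted p of 0.05, 0.0455% of all 8797 genes, 4 in number, passed this test. Each of the 4 (Cyp2e1, Mup9, Snord104 and Mir1957b) was listed at 0 in both mice with an MSM mother, although Cyp2e1 had B6-allele frequencies of 0.516 and 0.546 and Mup9 of 0.548 and 0.667 in those mice, so an FPKM of 0 need not mean absent reads. No gene with an FPKM above 0 in all 4 mice was called.

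Multiplying the FPKM by the paternal share gives the expression of the paternal copy, on the assumption that reads over strain differences stand for all reads of the gene. It was 3.94 and 3.76 FPKM where the father was B6, and 3.85 and 3.998 FPKM where the father was MSM. The means of 3.85 ± 0.122 and 3.92 ± 0.107 FPKM (SD, n = 2 each) differed by less than the spread between mice, and the values of the crosses overlap. The maternal copy gave 0.0847 and 0.224 FPKM where it was MSM and 0.179 and 0.395 FPKM where it was B6. The mouse with the highest total FPKM was therefore also the mouse with the largest share from the maternal copy.

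**Figure D1:**
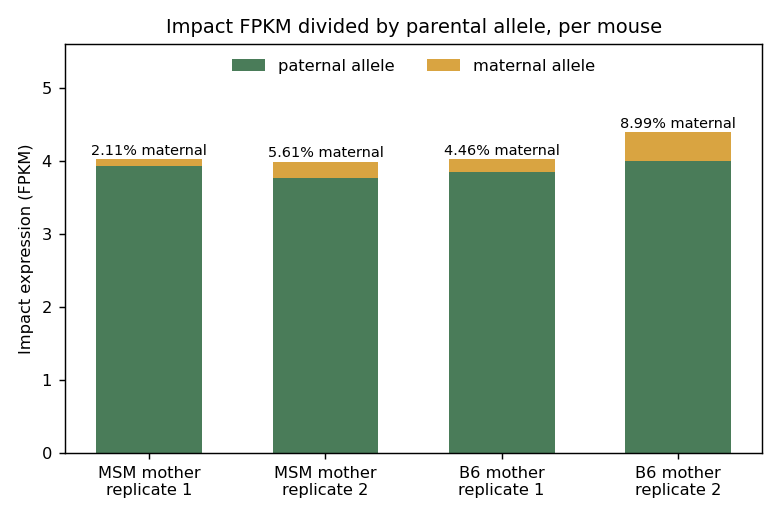
Impact expression in FPKM (bar height) in each of the 4 mice, divided by the deposited allele frequency into the paternal (green) and maternal (yellow) copy. Each bar is 1 mouse and carries its maternal share, which ran from 2.11% to 8.99%, while the paternal part stayed between 3.76 and 3.998 FPKM.

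Ranked by the absolute difference in mean frequency between the crosses, Impact was at rank 3 of the 3632 genes. Igf2r, with a difference of -0.992, and Meg3, with -0.990, stood before it, and the next gene followed at an absolute difference of 0.864. Impact was at rank 1 among differences with the higher frequency under an MSM mother. The median absolute difference over all genes was 0.0211 and the 99th percentile 0.266. Among the 1421 genes with a frequency whose mean FPKM was 0.5 to 2 times that of Impact, the 99th percentile was 0.199. The spread of Impact between mice of a cross was not unusual, with a within-cross SD of 0.0287 against a median of 0.0346 among the same 1421 genes and 0.0253 among all.

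A frequency past 0.8 in both mice of a cross and past 0.2, on the low side, in both mice of the other was found in 3 genes. Impact was the 1 gene of the 3 with the high frequency under an MSM mother, and Igf2r and Meg3 had the opposite order. Over the means of both crosses, 67 genes had a frequency of at least 0.8 and 49 of at most 0.2. Impact was in neither set, with its mean of 0.514.

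**Figure D2:**
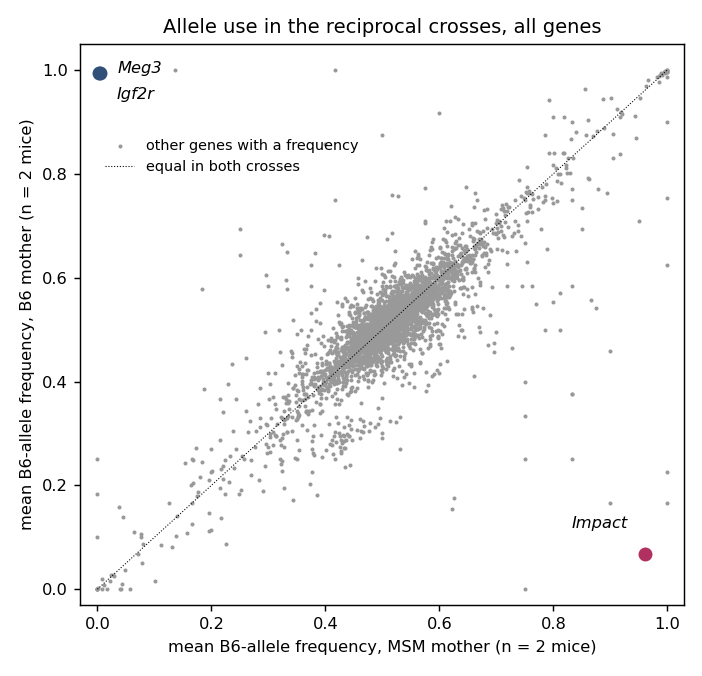
Mean B6-allele frequency with an MSM mother (x axis, 2 mice) against that with a B6 mother (y axis, 2 mice) for the 3632 genes with a frequency, 1 point per gene. Most genes lie near the dotted line of equal values, Impact lies at the lower right (0.961 and 0.0672), and Igf2r and Meg3 lie on top of each other at the upper left.

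Impact and a few other imprinted genes could be followed in both crosses. Of 30 listed paternally expressed genes, 6 had an FPKM and 2 a frequency, Impact and Inpp5f. Inpp5f, an inositol phosphatase gene, had B6-allele frequencies of 0.489 and 0.588 when the mother was MSM, and of 0.496 and 0.470 when it was B6. Its values overlap between the crosses, and its maternal share averaged 0.472 ± 0.0434 (SD, n = 4). Of the 2 paternally expressed genes that could be followed at gene level, Impact was read almost entirely from the paternal copy and Inpp5f from both copies. Impact was chosen for its frequencies, so these 2 genes give no rate for the list.

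Of 30 listed maternally expressed genes, 12 had an FPKM and 5 a frequency. Igf2r and Meg3 passed the limma test of the frequency between the crosses (adjusted p = 4.77e-04 and 4.97e-04). Over all genes with a frequency 3 passed (0.0826%), these 2 and Hc, a gene of coarse values described below. Limiting the frequencies to 0.01 to 0.99 made the mice of each cross equal in Igf2r and nearly so in Meg3. The p-values of Igf2r and Meg3 therefore hold almost no spread between mice. Both calls were lost without replicate 2 with an MSM mother (adjusted p = 0.0561 for both) and without replicate 2 with a B6 mother (0.0501 for both), and with frequencies limited to 0.001 from either end of the scale (0.223 and 0.462). Over 8 alternatives the adjusted p ran from 2.78e-04 to 0.223 for Igf2r and from 3.49e-04 to 0.462 for Meg3, with 5 calls each. 1 of the 5 was with the frequencies not limited (limma adjusted p = 0.0026 for both genes). Gnas, which encodes the stimulatory G protein alpha subunit, had values of 0.389 and 0.407 when the mother was MSM, against 0.557 and 0.594 when it was B6. Slc22a18, a transporter gene of the Kcnq1 imprinted cluster, had 0.462 and 0.455 against 0.537 and 0.529. Neither Gnas nor Slc22a18 passed the test (limma adjusted p = 0.601 and 0.829). Tssc4 had frequencies of 0.488 and 0.545 against 0.526 and 0.680, which overlap.

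Total expression of the imprinted genes gave no call between the crosses. None of the 6 paternally and none of the 12 maternally expressed genes passed the limma test at an adjusted p of 0.05, against 0.0455% of all genes. No gene with an FPKM above 0 in all 4 mice was called, so the absence of calls here does not show equal expression. An unadjusted p under 0.05, for which no share of all genes is given, was found in 2 and 1 of them. Snrpn, a paternally expressed splicing factor gene without a frequency, had 6.17 and 4.07 FPKM with an MSM mother, against 15.6 and 14.2 FPKM with a B6 mother (log2 difference -1.40, SE 0.18, limma adjusted p = 0.251). Slc38a4, an amino acid transporter gene that is also listed as paternally expressed, was the most highly expressed of the 6, at 384 to 410 FPKM, and had no frequency either. Meg3, the 1 maternally expressed gene at an unadjusted p under 0.05, had 8.40 and 7.17 FPKM with an MSM mother. With a B6 mother Meg3 had 3.95 and 1.12 FPKM (log2 difference 1.44, SE 0.38, limma adjusted p = 0.441).

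**Figure D3:**
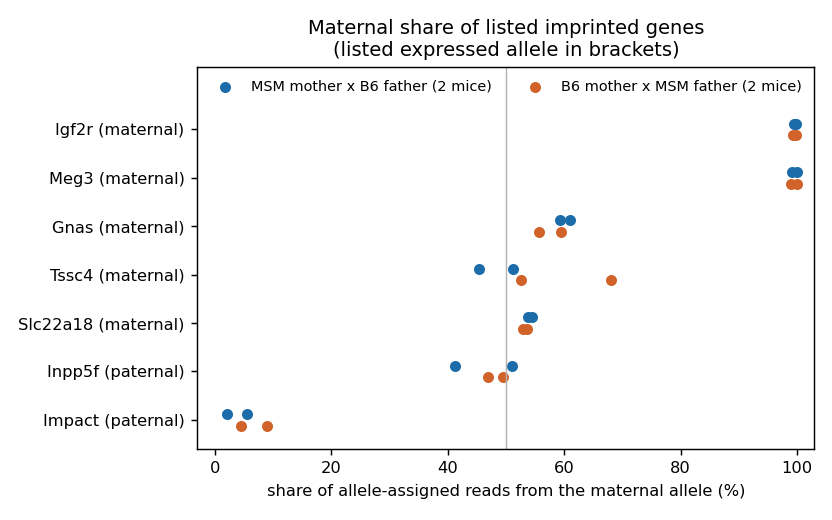
Share of allele-assigned reads from the maternal copy (x axis, percent) for the 7 listed imprinted genes with a frequency (y axis), 1 point per mouse, coloured by cross. Impact lies between 2.11% and 8.99%, and Igf2r and Meg3 lie near 100%. Inpp5f and Tssc4 lie on both sides of the line at 50%, and Gnas and Slc22a18 lie above it in every mouse.

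The neighbours of Impact on chromosome 18 were read from both parental copies. Within 5 Mb of Impact 20 genes were listed and 16 had a frequency, 13 before and 3 after it. None of the 16 passed the limma test of the frequency between the crosses at an adjusted p of 0.05, against 0.0826% of all genes. Impact, with its difference of 0.894, is not among the genes that passed either. The absence of calls therefore does not show that a neighbour lacks a parental pattern. An unadjusted p under 0.05, for which no share of all genes is given, was found in 2 of the 16. The differences between the crosses ran from -0.0769 in Usp14, a deubiquitinase of the proteasome, to 0.0836 in Snrpd1, a core protein of the spliceosome, with a median absolute difference of 0.0346. The 2 genes at an unadjusted p under 0.05 were Esco1, a cohesin acetyltransferase gene (0.626 and 0.595 against 0.543 and 0.516), and the gene model 1010001N08Rik (0.365 and 0.371 against 0.308 and 0.306).

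The closest neighbour, Osbpl1a, encodes an oxysterol-binding protein and lies on the minus strand, at chr18:12755314-12941841, with its start 14.0 kb before the start of Impact. Its B6-allele frequency was 0.442 and 0.451 with an MSM mother, against 0.431 and 0.405 with a B6 mother. The adjacent genes thus differed in allele use in every mouse, Impact by parent and Osbpl1a with a lean to the MSM copy in both crosses (log2 odds -0.39, SE 0.05, limma adjusted p = 0.0169). Osbpl1a was also more highly expressed, at 61.8 to 73.1 FPKM. On the other side the nearest gene with an FPKM was Ss18, a subunit of the BAF chromatin remodelling complex, 1.63 Mb after the end of Impact, with frequencies of 0.471, 0.485, 0.495 and 0.530.

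Imbalance between the strains was found in the region, at about the rate of all genes. Of the 16 neighbours, 6 passed the limma test of the mean frequency against 0.5, against 36.2% of all genes with a frequency. Esco1 and Npc1, the lysosomal cholesterol transporter, leaned to the B6 copy, and Abhd3, 1010001N08Rik, Osbpl1a and Psma8 to the MSM copy. Psma8, a proteasome subunit gene known from testis, came closest to the low values of Impact, at 0.133 and 0.181 when the mother was MSM and at 0.131 and 0.0846 when it was B6. It was low in both crosses (log2 odds -2.76, SE 0.17, limma adjusted p = 0.00523), so the maternal copy was the less used one with a B6 mother and the more used one with an MSM mother. In the other 15 neighbours the maternal share of single mice ran from 0.306 to 0.635, whereas that of Impact stayed at or below 0.0899. Psma8 was set apart here after its values were seen.

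**Figure D4:**
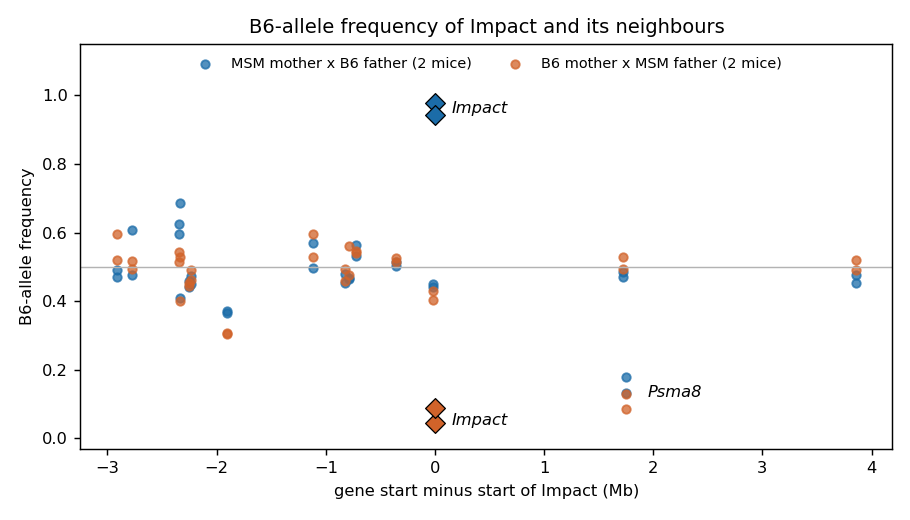
B6-allele frequency (y axis) of Impact (diamonds) and its 16 neighbours with a frequency (circles) against the distance of the gene's start from that of Impact (x axis, Mb), 1 point per gene and mouse, coloured by cross. The crosses separate to opposite ends at Impact, lie together near 0.5 at most neighbours, and lie together below 0.2 at Psma8.

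Where on the chromosome a frequency was given bears on what could be compared. The 4 listed neighbours farthest before Impact, Fzd8, Ccny, Colec12 and Thoc1, had no frequency, and neither had any other of the 14 listed genes of chromosome 18 that start before Usp14. From the start of Usp14, at position 9993066, 197 of 201 listed genes had a frequency. Impact starts 2.96 Mb past that point. Over the 197 genes, the next-largest difference after Impact was that of Tmx3, a disulfide isomerase gene, at 0.215 (0.713 and 0.657 against 0.530 and 0.409), and the median absolute difference of the other genes was 0.0214.

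The 5 genes whose frequencies over the 4 mice came closest to those of Impact were far from it. The measure was the root mean square distance in B6-allele frequency, which was 0.116 for Hc, complement component C5, 0.154 for Gsta3, a glutathione transferase, 0.178 for Aass, a lysine-degrading enzyme, 0.246 for Gcdh, which acts later in lysine breakdown, and 0.266 for the processed pseudogene Gm5424. Hc had values of 1 and 1 when the mother was MSM, against 0.2 and 0.25 when it was B6. Gsta3 had 1 and 1 against 0.3333 and 0, Aass 0.8 and 1 against 0.3333 and 0, and Gcdh 0.5 and 1 against 0 and 0. Simple fractions of this kind stand beside a high expression, of 121 to 611 mean FPKM in these 4 genes. All 5 genes start before 100 Mb on chromosomes 1, 2, 6, 8 and 10, where few genes had a frequency. On chromosomes 1 to 15 and X beyond 100 Mb and on chromosomes 16 to 19 beyond 10 Mb lay 3527 of the 3632 genes, and Impact was at rank 3 by difference among them as well. The 5 genes were chosen by these frequencies, so their likeness to Impact is a description.

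GCN2 and GCN1, through which the Impact protein acts, were expressed alongside it. Eif2ak4, which encodes GCN2, had 2.24 and 3.13 FPKM with an MSM mother, against 2.71 and 2.84 FPKM with a B6 mother. On this scale, which is per length, the level of Impact was 1.27 to 1.79 times that of Eif2ak4 within a mouse. Gcn1l1, which encodes GCN1, had 8.86 and 10.9 FPKM against 13.7 and 10.8 FPKM, or 2.20 to 3.40 times the level of Impact within a mouse. Unlike Impact, both were read from both copies, with B6-allele frequencies of 0.426 to 0.494 for Eif2ak4 and of 0.485 to 0.508 for Gcn1l1, and neither passed the test of the frequency between the crosses (limma adjusted p = 0.913 for both).

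Of 16 listed genes of GCN2, the other eIF2α kinases, eIF2, eIF2B and the eIF2α phosphatase, 15 had an FPKM. None passed the limma test between the crosses at an adjusted p of 0.05, against 0.0455% of all genes. Since no gene above 0 FPKM in all 4 mice was called, the absence of calls does not show equal expression. This holds for the RWD and ATF4 lists below as well. An unadjusted p under 0.05, for which no share of all genes is given, was found in 1, Eif2b3. Their median difference in log2(FPKM + 1), MSM mother minus B6 mother, was 0.03, against 0.02 over all genes. The differences of the kinase genes were -0.05 for Eif2ak4, -0.12 for Eif2ak1, the kinase of heme shortage, 0.03 for Eif2ak2, the kinase of double-stranded RNA, and -0.00396 for Eif2ak3, the kinase of endoplasmic reticulum stress. Of the 8 genes of this list with a frequency, none passed the limma test of the frequency between the crosses, against 0.0826% of all genes. A strain imbalance was called in 3, against 36.2%.

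Of 11 other genes with an RWD domain and their partners, 9 had an FPKM. None passed the limma test of expression between the crosses at an adjusted p of 0.05, against 0.0455% of all genes. The median log2 difference was 0.17, and 0 genes had an unadjusted p under 0.05. Rwdd1, whose protein binds the GTPase DRG2, had 28.4 and 20.9 FPKM with an MSM mother, against 16.99 and 20.7 FPKM with a B6 mother. Rwdd3, which encodes an enhancer of SUMO conjugation, had B6-allele frequencies of 0.171 and 0.158 against 0.201 and 0.2. Like Psma8 it was read mainly from the MSM copy in both crosses (log2 odds -2.17, SE 0.05, limma adjusted p = 0.001), a strain imbalance and not the parental pattern of Impact.

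Of 37 listed genes of ATF4 and its targets, 24 had an FPKM, with a median log2 difference of 0.01. None passed the limma test of expression between the crosses, against 0.0455% of all genes. An unadjusted p under 0.05 was found in 4, a count given without the share of all genes at that p. The most highly expressed of the 24 were Shmt2, a mitochondrial enzyme of one-carbon metabolism, Atf5, the tRNA synthetase genes Aars, Tars and Nars, and Atf4 itself. Atf4 had 40.5 and 45.6 FPKM with an MSM mother, against 34.0 and 41.7 FPKM with a B6 mother, values that overlap (log2 difference 0.19, SE 0.15, limma adjusted p = 0.698).

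The 4 genes at an unadjusted p under 0.05 went both ways. Ddit4, an inhibitor of mTORC1 signalling, had 9.14 and 25.4 FPKM with an MSM mother against 2.13 and 2.24 FPKM with a B6 mother (log2 difference 2.36, SE 0.42, limma adjusted p = 0.324). Cebpb, a transcription factor of the acute phase response, had 46.8 and 36.5 FPKM against 11.0 and 19.9 FPKM (1.42, SE 0.28, adjusted p = 0.340). Chac1, a glutathione-degrading enzyme, had 3.85 and 5.67 FPKM against 1.78 and 2.44 FPKM, and Gdf15, a stress-induced hormone, had 3.78 and 2.95 FPKM against 5.64 and 5.03 FPKM. Of the 4, Ddit4, Cebpb and Chac1 were higher with an MSM mother and Gdf15 with a B6 mother. Ddit4 passed the test when either mouse with an MSM mother was left out (adjusted p = 0.00154 without replicate 1 and 0.0313 without replicate 2, against a range of 2.47e-15 to 0.518 over 10 alternatives). In these fits the lone mouse is assumed to vary like the mice of the other cross, and calls over all genes rose from 4 to 23 and 13. These 4 were picked from the list by their values. The summed FPKM of 3 Kupffer cell markers, Emr1 not among them, was 95.3 to 104 with an MSM mother and 126 to 133 with a B6 mother. That of 5 endothelial markers was 99.2 to 108 against 113 to 119, and that of 5 hepatocyte markers was 13930 to 14183 against 9682 to 12345. The hepatocyte sum rests mostly on Apoa1 and Ttr. By gene, the log2 differences of the 5 were 1.04 for Tat, 0.55 for Ttr, 0.27 for Apoa1, 0.03 for Cps1 and 0.01 for Hnf4a. The part of cell content in the differences of the 4 ATF4 list genes was not tested. In whole liver, fewer cells of a type and less RNA per cell cannot be told apart.

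**Figure D5:**
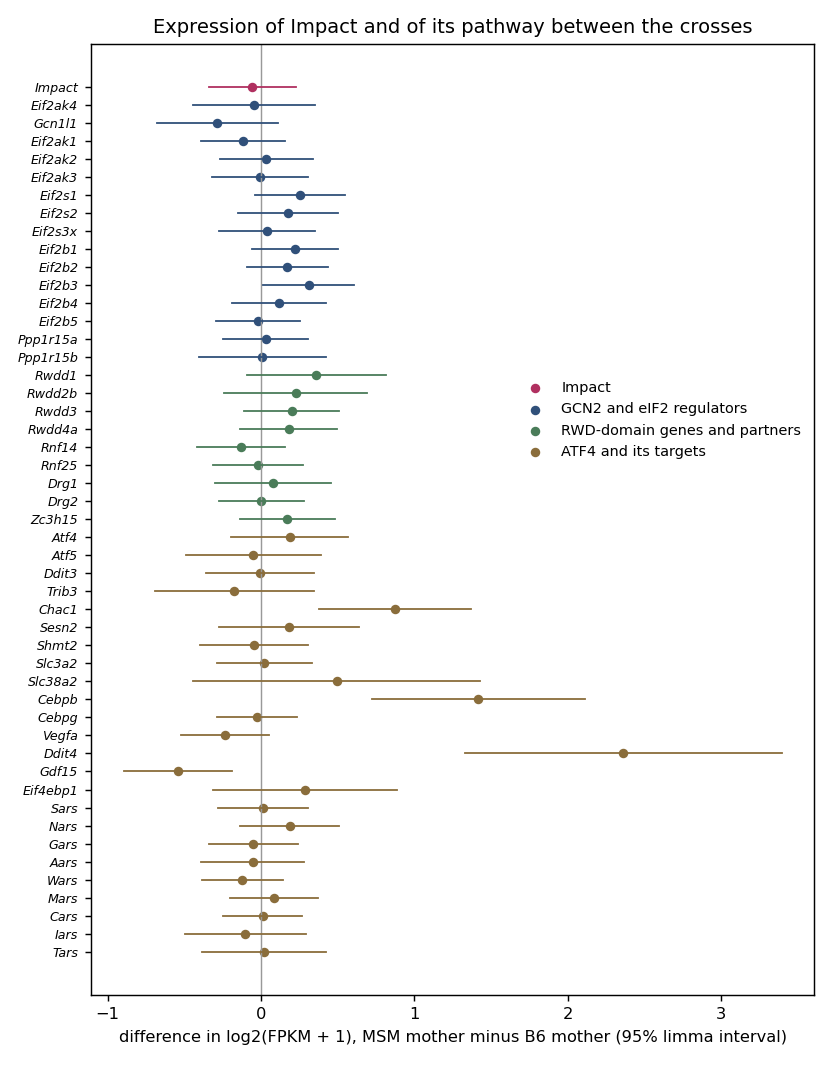
Difference in log2(FPKM + 1) between the crosses, MSM mother minus B6 mother (x axis; points, estimates; lines, 95% limma intervals, 2 mice per cross), for Impact and the genes with an FPKM of 3 lists (y axis). Impact lies at -0.06, most intervals cross 0, and the intervals of Ddit4, Cebpb, Chac1, Gdf15 and Eif2b3 do not, although none passed after adjustment over all genes.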

How the data were processed

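The mRNA of 4 livers was measured, 2 per cross, with parents and replicate numbers taken from the sample labels. The authors prepared strand-specific poly(A) libraries, used Trim Galore! for trimming and Tophat2 for alignment to mm10 with the strain differences masked, with 1 alignment kept per read, and deposited expression per gene in FPKM. The authors also separated the reads by allele with SNPsplit, counted each allele per gene with Cuffdiff, and deposited the B6 share as a fraction from 0 to 1. Tool versions are not given in the sources used here. Masking removes the advantage of the reference strain at these sites, and reads without a strain difference do not enter the fraction.

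The maternal share was 1 minus the B6-allele frequency with an MSM mother and the frequency itself with a B6 mother. Expression was tested with limma 3.58.1 in R 4.3.3 on log2(FPKM + 1), with the variance modelled as a trend on mean expression. A minimum mean FPKM of 1 removed no gene. Fold changes on this scale understate those of low genes such as Impact. Frequencies, limited to 0.01 to 0.99, were tested with limma as log2 odds, with the intercept as strain imbalance and the cross term as the difference between crosses. Tests were two-sided, and p-values were adjusted by Benjamini-Hochberg over every gene tested. Counts at an unadjusted p under 0.05 are given without the share of all genes at that p and were not tested for an excess. Values of Impact that rest on its frequencies, which chose it, are given without a p-value. Tables were handled in Python 3.11.15. Scripts were tested on simulated data. Positions came from GENCODE M21 for 8434 genes and from RefSeq for the rest, by symbol for 15 and by synonym for 329.

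Impact and the gene lists were chosen with earlier results of these data known. The named genes are Impact, the 5 genes closest to it in frequency, its neighbours within 5 Mb with a frequency and the nearest gene with an FPKM on each side, listed imprinted genes with a frequency, members of the GCN2 and RWD lists, the 6 highest of the ATF4 list and any called, and genes past 0.8 in both mice of a cross and past 0.2 in both of the other. Snrpn, Slc38a4, Tmx3, Ddit4, Cebpb, Chac1, Gdf15 and the neighbours without a frequency fall outside this rule and were named after their values were seen. Equal replicate numbers are not said to share a litter or batch, so no replicate block was used.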

Additional observations from a re-analysis of the deposited data

Results flagged for a closer look

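Among the genes named above, 10 had B6-allele frequencies on opposite sides of 0.5 in the 2 crosses, in both mice of each. Over all 3632 genes this held for 137 (3.77%). The difference of Impact, 0.894 (MSM mother minus B6 mother), is the value that chose the gene and is given without a test. Igf2r (-0.992, limma adjusted p = 4.77e-04) and Meg3 (-0.990, adjusted p = 4.97e-04) passed the test of the difference itself, though not under 3 of 8 alternatives. Gnas (-0.177), Usp14 (-0.0769) and Slc22a18 (-0.0745) did not, with limma adjusted p from 0.601 to 0.873. Beside Igf2r and Meg3, Hc was the 1 gene called over all genes with a frequency. Gsta3 (0.833), Hc (0.775), Aass (0.733) and Gm5424 (0.468) were named for their likeness to Impact in these frequencies, so their differences are given without a p-value. They start before 100 Mb on their chromosomes, where few genes had a frequency, and in Gsta3, Hc and Aass the values are simple fractions. With 2 mice per cross, no test for a single mouse far from the others was possible.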

How the results depend on the processing

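The frequency difference of Impact (0.872 to 0.917), its mean maternal share (as a fraction, 0.0406 to 0.0635) and its limma test of expression (adjusted p 0.826 to 1.00) kept their direction, and the test its side of the threshold, under every alternative run for them. The difference of the maternal share between the crosses kept its sign but ran from 0.597 to 5.13 percentage points when single mice were left out. The count of 0 neighbours called between the crosses held in all 8 alternatives, though Impact itself was not called in the main fit. The rank of Impact by cross difference was 3 to 6 when single mice were left out, 7 by log2 odds with frequencies limited to 0.01 from either end of the scale, and 16 with 0.001 from either end. The difference in paternal-allele FPKM, -0.0712, ran from -0.157 to 0.0148 when single mice were left out and was reversed without replicate 2 of either cross (0.0148 and 0.00483). Over all genes, calls in expression rose from 4 to between 13 and 23, calls of strain imbalance fell from 1316 to between 181 and 514, and calls of the frequency between crosses ran from 0 to 6 against 3 when single mice were left out, and a limit of 0.001 from either end gave 1. With the replicate number as a block, calls were 285 in expression and 775 of strain imbalance, and 3 genes of the GCN2, RWD and ATF4 lists (Ddit4, Cebpb and Chac1) passed against 0 without it and 0 to 1 when single mice were left out. Over the genes, the deviation of replicate 1 from its cross mean correlated between the crosses at 0.00375 in expression and 0.109 in frequency. This does not show that the numbers pair the mice. A minimum mean FPKM of 5 removed Impact, so it gave no value for its rank or expression. The causes of these changes were not tested. The depth of each frequency is unknown, so no lower limit of detection could be set for the maternal share.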
